A study of Homo sapiens with 17 samples.

Results

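Upstream antisense sites are positions where RNA polymerase was recorded travelling away from a protein-coding promoter on the strand opposite to the gene. They were taken from 4 tables of pausing times as rows on chromosomes 1 to 22 that lay 0 to 500 bp upstream of a GENCODE release 29 protein_coding transcript start, on the opposite strand, and outside every annotated gene on their own strand. Of 149498 distinct autosomal positions and strands in the 4 tables, 6281 were upstream antisense sites, and they belonged to the promoters of 2983 of 18772 coding genes. The comparison class was 22428 promoter sense sites, which lay 0 to 300 bp downstream of coding starts on the gene's own strand. Position relative to the annotation chose both classes, and no pausing time was used.

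All values came from HEK293 cells, an established line of human embryonic kidney cells grown in DMEM with serum and permeabilised before the run-on reaction. Time-variant precision run-on sequencing lets engaged polymerases add labelled nucleotides for a set time and maps the 3′ ends of the RNA. Run-on lasted 0.5, 2, 8 or 32 min, with sarkosyl in the buffer or without it, in biological duplicates, which made 16 libraries; of the 17 samples listed, 1 labelled Trp treatment was not analysed here. Sarkosyl, a detergent, removes much of the protein bound to DNA but leaves engaged polymerases able to elongate.

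Each table, called a series here, holds values fitted over the 4 run-on times of a buffer and replicate, so every comparison below rests on 2 series per buffer. The pausing time of a row is the reciprocal of its fitted rate. Its unit was not stated, so times are printed as deposited, and the depth of the libraries is unknown. Sarkosyl-free replicate 2 stood apart from the other 3 series in its bases and its long times, so values are given series by series.

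Many mammalian coding promoters are transcribed in both directions. The nucleosome-free stretch upstream of the gene carries a further core promoter, from which polymerase transcribes in reverse. The resulting promoter upstream transcripts, or upstream antisense RNAs, are capped but usually end early at poly(A) signals and are degraded by the nuclear exosome. Polymerase pauses soon after initiation on both strands, and release of a paused polymerase into the gene depends on P-TEFb, the kinase that acts on the pausing factors NELF and DSIF.

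The sequence at an upstream antisense site was read from RefSeq promoter windows on GRCh38.p14, which cover 250 bases before and 50 after a gene's start. These windows covered 2380 of the 6281 sites with 12 bases to either side. The following 31-base stretches centre on sites found in all 4 series and outside annotated exons on both strands, and were picked after their values were seen to show the recurrent bases before the site. Each is written 5′ to 3′ in the direction of antisense transcription, and the capital marks the recorded position. The sites lie upstream of TAF4 (chr20:62066084-62066114, plus strand), BUB1 (chr2:110678267-110678297, plus strand), ULK3 (chr15:74843365-74843395, plus strand), MFSD14A (chr1:100037912-100037942, minus strand), DLST (chr14:74881770-74881800, minus strand) and ZNF397 (chr18:35240852-35240882, minus strand).
TAF4: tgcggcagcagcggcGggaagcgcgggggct
BUB1: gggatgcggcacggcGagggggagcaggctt
ULK3: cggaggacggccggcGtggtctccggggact
MFSD14A: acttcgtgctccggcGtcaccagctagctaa
DLST: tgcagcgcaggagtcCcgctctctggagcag
ZNF397: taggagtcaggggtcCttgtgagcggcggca
The stretches upstream of TAF4, BUB1, ULK3 and MFSD14A share ggc just before a recorded G. Those of DLST and ZNF397 have g at 3 bases before and c at 1 base before a recorded C.

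Nearly every site was a C or a G. Among sites with sequence, the share at C or G was 98.8% and 96.7% in replicates 1 and 2 of the sarkosyl buffer, and 99.1% and 99.5% in replicates 1 and 2 of the sarkosyl-free buffer. Promoter sense sites gave 98.9%, 97.4%, 98.9% and 98.9% in the same order, so this holds for the tables and is not a feature of antisense sites. Which labelled nucleotides entered the run-on was not given in the sources used here. The pattern also fixes the coordinates, since it appears when the positions are counted from 1.

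The series differed in which of these bases they listed. C made up 70.8% and 70.9% of upstream antisense sites in the sarkosyl series, against 56.1% and 25.2% in the sarkosyl-free series. The sarkosyl series lay together, and sarkosyl-free replicate 2 stood apart with 74.3% of its sites at G. Promoter sense sites moved in the same way, with 68.3%, 66.2%, 48.1% and 24.02% at C. The difference between buffers, 70.8% ± 0.0622 against 40.6% ± 21.9 (SD, n = 2 series each), had a two-sided exact permutation p of 0.333, which is the smallest that 2 series against 2 allow.

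The bases before the site were uneven as well. At upstream antisense sites on C or G, the base 3 before was G in 51.5% and the base just before was C in 48.2% of 2337 sites. Over all 384081 C and G positions in the same 250-base windows, read on the antisense strand, these shares were 33.4% and 31.6%. The run GGC stood directly before 14.4% of the antisense sites and before 3.94% of all such positions. Promoter sense sites had GGC before 16.9% of 4834 sites. Among the 52 antisense sites with sequence that were listed in all 4 series, 18, or 34.6%, followed GGC, and 59 of 152 sense sites of all 4 series, or 38.8%, did so. In each series separately, GGC stood before 16.3%, 14.3%, 16.2% and 22.4% of the antisense sites.

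The 250 bases upstream of ZNF45, a zinc finger gene on chromosome 19, show how such sites lie side by side. This window (chr19:43935283-43935532, plus strand) had the most sites among exon-free windows in which every series listed at least 1. Its 6 recorded positions are in capitals.
ZNF45: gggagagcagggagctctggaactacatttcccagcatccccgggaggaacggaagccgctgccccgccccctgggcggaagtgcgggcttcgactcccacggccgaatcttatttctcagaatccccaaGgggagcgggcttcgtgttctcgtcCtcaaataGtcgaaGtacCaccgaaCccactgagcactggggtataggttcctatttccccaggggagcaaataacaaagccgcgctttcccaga
The 3 sites at C, at 179, 197 and 204 bp from the coding start, were listed only in the sarkosyl series, with pausing times of 0.926 and 1.96, 2.38 and 2.00, and 0.947 and 1.58 in replicates 1 and 2. The site at G 154 bp from the start was listed only in sarkosyl-free replicate 2, with a time of 55.6. The site at G 187 bp from the start had times of 25 and 6.21 in sarkosyl-free replicates 1 and 2. The site at G 193 bp from the start had a time of 1.25 in sarkosyl replicate 1, and of 3.19 and 11.2 in sarkosyl-free replicates 1 and 2. Sites at C in this window were thus listed with sarkosyl, and sites at G mainly without it. A further site of this gene lay at 405 bp, outside the window.

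Upstream antisense sites formed a broad peak well upstream of the coding start. Their number was 2997 and 2001 in sarkosyl replicates 1 and 2, and 2282 and 1309 in sarkosyl-free replicates 1 and 2. The median distance from the start was 201 and 211 bp with sarkosyl, and 192 and 186 bp without it. The sites of the sarkosyl series thus lay farther out in both replicates, 206 bp ± 7.07 against 189 bp ± 4.24 (SD, n = 2 series each). The exact permutation p was 0.333, the smallest possible here. Promoter sense sites had median distances of 62, 69, 55 and 56 bp in the same order, so on both strands the sarkosyl series lay farther from the start. The densest 25 bp of the antisense window began 161 bp upstream. Over all series, 283 sites lay within 50 bp of the start, 468 at 51 to 100 bp, 1066 at 101 to 150 bp, 1334 at 151 to 200 bp, 1728 at 201 to 300 bp and 1402 at 301 to 500 bp. From an antisense site to the nearest sense site of the same gene and series, the median span was 328, 350, 331 and 333 bp.

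**Figure D1:**
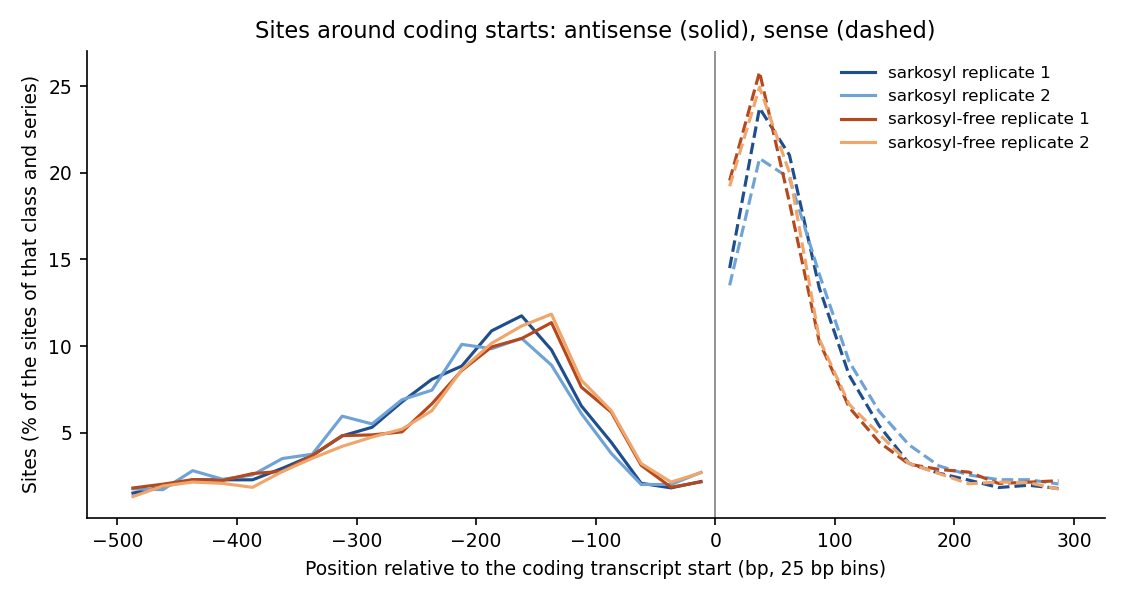
The horizontal axis is the distance from the coding transcript start in bp, negative upstream, and the vertical axis is the percent of the sites of a class and series in each 25 bp bin; solid lines are antisense and dashed lines sense sites. The antisense sites of all 4 series peak between 125 and 174 bp upstream, and the sense sites within 49 bp downstream.

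The limit of 500 bp cut through a thin tail. Just inside it, at 451 to 500 bp, 220 sites had median times of 1.49, 1.30, 1.70 and 2.66 in the order sarkosyl replicates 1 and 2, then sarkosyl-free replicates 1 and 2. Just outside it, at 501 to 550 bp, 201 opposite-strand sites had median times of 1.50, 1.30, 1.57 and 11.0. As a check of the annotation, 4.20% of all autosomal sites were upstream antisense, against 0.741% after every site was shifted by 100000 bp.

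Upstream antisense sites were 6.52% and 4.45% of all autosomal sites in the sarkosyl series, against 3.68% and 3.37% in the sarkosyl-free series. Promoter sense sites were 23.4% and 18.7%, against 13.3% and 12.6%. Both classes took a larger share of the sarkosyl tables (exact permutation p = 0.333 for each). The ratio of the classes did not separate the buffers. There were 27.9 and 23.8 antisense sites for every 100 sense sites with sarkosyl, and 27.6 and 26.7 without it, or 25.9 ± 2.85 against 27.2 ± 0.672 (SD, n = 2 series each, exact permutation p = 1). Numbers of sites depend on how the authors called them, which the sources used here do not give.

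Pausing times of upstream antisense sites were close to those of promoter sense sites in every series. Antisense sites had median times of 1.22 and 1.23 in the sarkosyl series, and of 1.65 and 6.62 in sarkosyl-free replicates 1 and 2. The corresponding sense medians were 1.26, 1.19, 1.77 and 6.54. Single antisense sites ranged from 0.416 to 111, from 0.596 to 41.7, from 0.145 to 143 and from 0.152 to 333 in the same order. On the log2 scale the antisense median minus the sense median was -0.04, 0.05, -0.11 and 0.02. These differences took both signs within each buffer, and their mean of -0.02 ± 0.07 (SD, n = 4 series) had a two-sided exact sign-flip p of 0.75. The buffers differed by 0.05 in this value (exact permutation p = 0.667). With only the outermost coding start of each gene, the mean became 0.13 with sarkosyl and 0.10 without it. The 4 series then gave 0.11, 0.15, 0.02 and 0.19, all above 0, and this setting was not tested. Several other settings turned the sign of the mean.

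**Figure D2:**
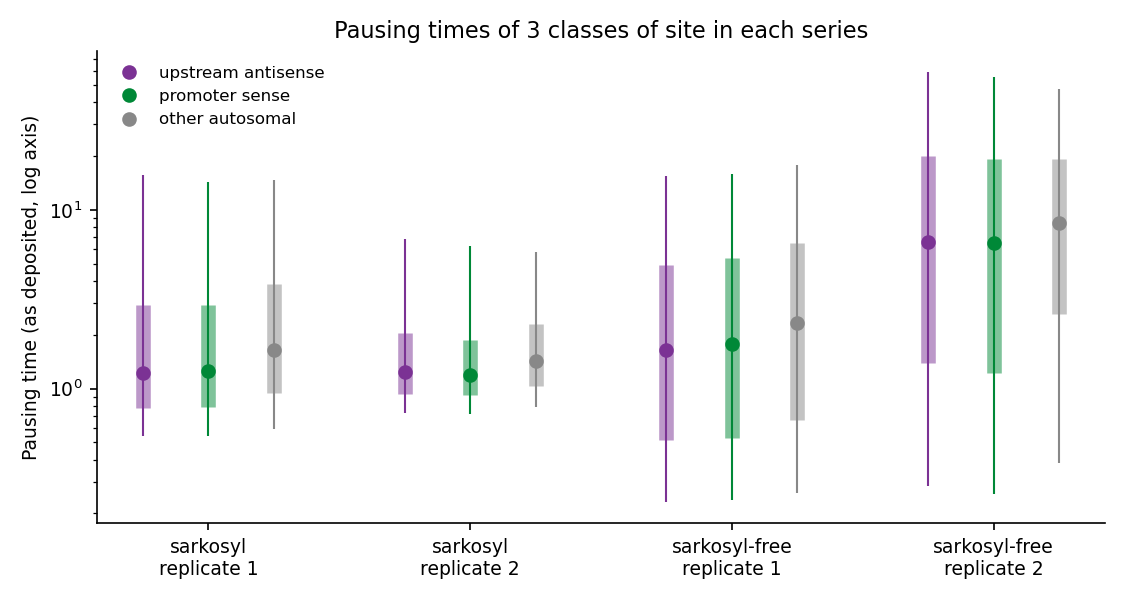
Pausing time as deposited on a log axis for the 4 series; points are medians over sites, thick bars run from the lower to the upper quartile and thin lines from the 5th to the 95th percentile. Antisense and sense medians lie side by side in each series, and both lie below the median of the other autosomal sites.

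Both promoter classes were shorter than the remaining autosomal sites. Those had medians of 1.64, 1.42, 2.32 and 8.47, so the antisense median was lower by a log2 difference of -0.42, -0.20, -0.49 and -0.36. All 4 series had the same direction, and the mean was -0.37 ± 0.13 (SD, n = 4 series). The exact sign-flip p was 0.125, the smallest that 4 series allow. The remaining sites include gene bodies, intergenic positions and non-coding genes, and they differ in position as well as class.

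The base at the site moved with the times. Antisense sites at C had median times of 1.08, 1.13, 1.38 and 4.93, and those at G had 1.19, 1.29, 2.23 and 7.02. Sites at C were thus shorter in 4 of 4 series, by log2 differences of -0.14, -0.19, -0.69 and -0.51 (exact sign-flip p = 0.125). Sites with C just before had shorter times in the sarkosyl-free series, with differences from the rest of -1.06 and -1.87, whereas the sarkosyl series gave -0.19 and 0.01. The 2 buffers did not overlap in this value (exact permutation p = 0.333). Sites with G at 3 bases before gave -0.49 and 0.04 in the sarkosyl series, against -0.34 and -1.14. The sense class behaved alike for C against G, with -0.03, -0.17, -0.73 and -1.71. With C just before, sense sites gave -0.23, 0.16, -1.41 and -2.14, so the buffers did not overlap in that class either. With G at 3 bases before, they gave -0.24, 0.03, -0.33 and -1.19. These patterns were thus not particular to antisense sites.

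Within sites of the same base, antisense and sense times were compared again. At C, antisense minus sense was 0.06 and 0.07 in the sarkosyl series, against 0.16 and 1.13 in the sarkosyl-free series. The last value rests on 139 antisense and 288 sense sites of sarkosyl-free replicate 2. At G, the differences were 0.17, 0.09, 0.12 and -0.07. The value at C was above 0 in 4 of 4 series. It was added after the data were seen and was not tested, and 37.9% of antisense but 21.9% of sense sites had a sequence.

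**Figure D3:**
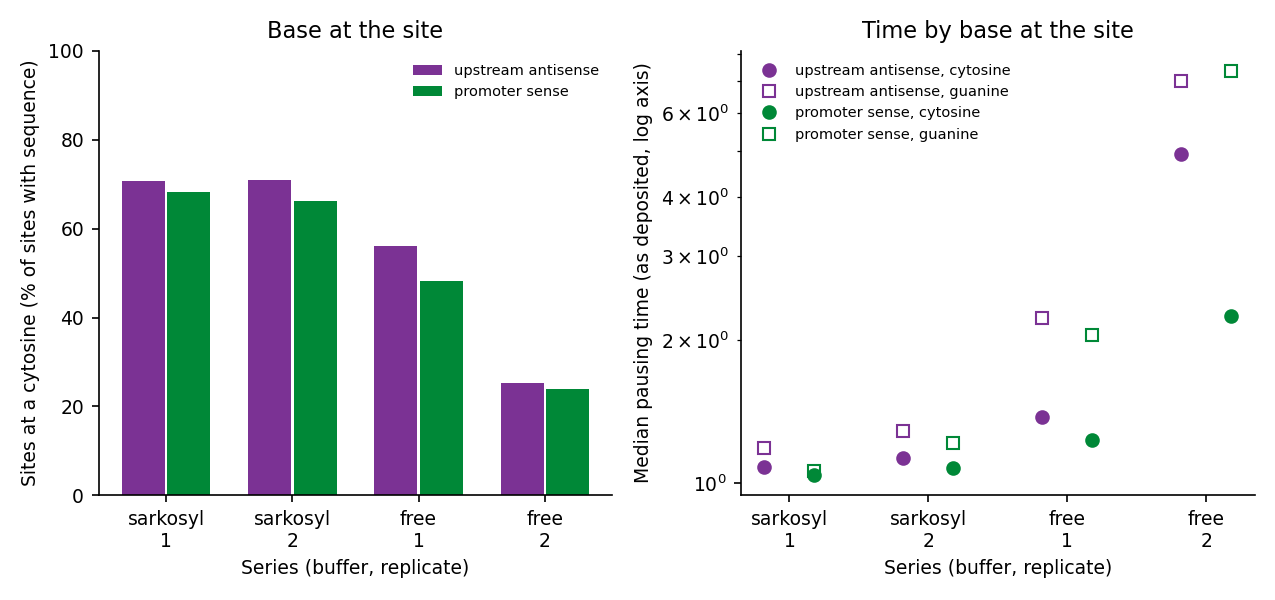
Left, the percent of sites with sequence that lie at a cytosine in each series; right, median pausing time on a log axis for sites at cytosine (filled circles) and guanine (open squares), for upstream antisense and promoter sense sites. Cytosine falls from 70.8% of antisense sites in sarkosyl replicate 1 to 25.2% in sarkosyl-free replicate 2, and its sites have the lower median time in each series.

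Times also varied with distance from the start. Relative to the median of all autosomal sites of the same series, antisense sites at 101 to 150 bp had log2 values of -0.57, -0.28, -0.43 and -0.52. Those at 301 to 500 bp had -0.05, 0.07, -0.36 and -0.27. Over the 6 distance classes the values ran from -0.57 to -0.04 and from -0.28 to 0.07 in the sarkosyl series, and from -0.65 to -0.36 and from -1.25 to 0.12 in the sarkosyl-free series. The lowest class was 101 to 150 bp in both sarkosyl series and 0 to 50 bp in both sarkosyl-free series. The 283 sites within 50 bp of the start had -0.04 and 0.01 with sarkosyl but -0.65 and -1.25 without it. These values did not overlap between buffers (exact permutation p = 0.333), and the sarkosyl-free ones rest on 94 and 63 sites. Values at 301 to 500 bp did not overlap either (exact permutation p = 0.333, 6 distance classes compared). With 2 series per buffer this p is the smallest possible, so neither class can be told from chance.

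The surroundings of the sites differed from promoter to promoter. Although outside genes on their own strand, 2594 of the 6281 lay inside an annotated gene on the other strand. In 2354 of these (90.7%) that was the gene itself, another transcript of which starts farther upstream. Their share was between 40.2% and 41.2% in every series. Relative to sense sites, these had log2 differences of -0.12, -0.01, -0.08 and -0.09. Sites outside genes on both strands had 0.04, 0.12, -0.13 and 0.14. A further 737 sites, at 327 genes, lay within 5000 bp past the end of a gene on their own strand, where transcripts of that gene can run on. Their times relative to sense sites were 0.11, 0.07, 0.09 and -0.36. Another 598 sites lay within 1000 bp before a gene start on their own strand, and 4946 sites, or 78.7%, had neither neighbour. With only the latter, antisense minus sense was -0.05 and 0.06 in the sarkosyl series, against -0.11 and 0.11 in the sarkosyl-free series.

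The genes with most antisense positions included promoters that lie behind another transcription unit. COX20, which encodes an assembly factor of cytochrome c oxidase, had 23 sites between 14 and 454 bp upstream of its starts. They run on the strand of HNRNPU, whose annotated end is 5083 bp before the nearest site. Their number was 12, 12, 9 and 6 in the order sarkosyl 1 and 2, sarkosyl-free 1 and 2, with median times of 1.98, 1.36, 2.59 and 4.12. TLCD1 had 20 sites, and RPL23A, a ribosomal protein gene, ends 497 bp before the nearest of them on the same strand. Their median times were 1.76, 1.24, 3.40 and 9.07. TRIM41, a RING-type ubiquitin ligase gene, had 21 sites, and MIR4638 ends 116 bp before the nearest of them on the same strand. Their median times were 1.55, 1.17, 0.342 and 5.92. Inside an annotated gene on the other strand lay 14 of the 23 COX20 sites, all 20 of TLCD1 and 3 of the 21 of TRIM41. Whether these sites belong to transcription from HNRNPU, RPL23A or the MIR4638 locus was not tested.

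HIST1H2BD, a histone H2B gene, had 14 antisense and 14 sense sites, and AL353759.1 ends 2910 bp before the nearest antisense site on the same strand. Its antisense medians were 3.27, 1.29, 2.17 and 19.5. ING1, which encodes a reader of histone methylation, had 13 sites with medians of 3.41, 1.198, 0.646 and 6.62. All 13 lay inside an annotated gene on the other strand, and none of the HIST1H2BD sites did. Across all genes, 1470 of the 2983 had a single antisense position, 1264 had 2 to 4, and 249 had 5 or more.

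Antisense and sense sites occurred together at many promoters, but their times at a gene showed almost no rank correlation. In sarkosyl replicate 1, 1160 genes had both kinds of site, and the numbers were 663, 842 and 379 in the other series. The median difference, antisense minus sense of the same gene, was 0.07 and 0.05 in the sarkosyl series, against -0.15 and 0.24 in the sarkosyl-free series. Antisense was the longer in 51.7%, 52.9%, 48.1% and 53.0% of genes. Across these genes, Spearman's rho between the antisense and sense medians was 0.03, 0.01, 0.04 and 0.01. Across genes, the antisense median of a gene had a rho of 0.46 between the sarkosyl replicates (1059 genes) and 0.24 between the sarkosyl-free replicates (710 genes). These are correlations across genes that share a table, given as a description. Genes are not independent replicates.

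**Figure D4:**
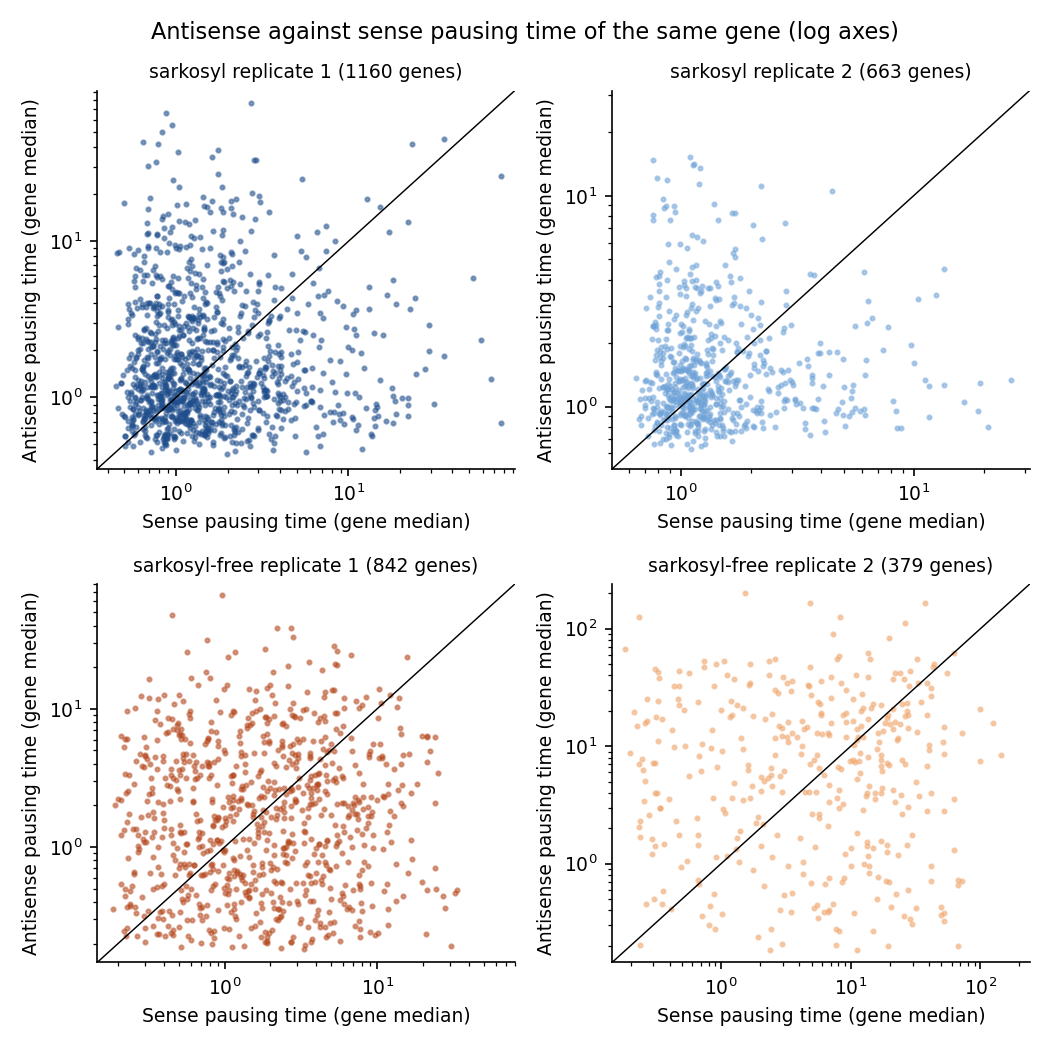
Each point is a gene with both kinds of site in that series; the horizontal axis is the median sense and the vertical axis the median antisense pausing time, both on log axes with the line of equality. The clouds of all 4 series are spread to both sides of the line, with no trend along it.

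In 105 genes both kinds of site were listed in all 4 series. The antisense median was longer in all 4 series at 19 of them and shorter in all 4 at 7. Within the sarkosyl buffer it was longer in both series at 46 and shorter in both at 21. Within the sarkosyl-free buffer these counts were 38 and 28. Whether 19 and 7 differ from what the counts within each buffer would give was not tested. The genes named next were chosen by the antisense minus sense difference, so their values are a description. LTN1, the ubiquitin ligase of ribosome quality control, had antisense times of 4.66, 13.96, 4.64 and 8.72, against sense times of 1.02, 1.12, 0.301 and 0.197. Its antisense sites were the longer ones by log2 differences of 2.19 to 5.47. RAPGEF6, NUFIP2, TOMM20 and HIST1H2BD followed, with mean differences of 2.80, 2.74, 2.60 and 2.46. TOMM20 encodes an import receptor of the outer mitochondrial membrane, and its antisense sites had times of 2.14, 2.84, 1.78 and 7.81 against 0.739, 0.885, 0.393 and 0.246 for its sense sites.

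At the other end, TXN2, the mitochondrial thioredoxin gene, had antisense times of 0.691, 1.40, 1.29 and 0.715. Its sense times were 1.25, 1.59, 11.6 and 71.4. HSPA9, a mitochondrial chaperone gene, had a mean difference of -1.91, and MRPS31, MTRF1L and NABP1 had -1.53, -1.52 and -1.41. Apart from HIST1H2BD, with up to 11, each value here rests on 1 to 6 sites of a kind in a series.

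Which genes had upstream antisense sites was compared by gene lists. Among 6476 coding genes that had sense sites and at least 251 of the 501 upstream window positions free of genes on the antisense strand, 2135, or 33.0%, also had antisense sites. Cytosolic ribosomal protein genes had them at 29 of 65 genes, or 44.6%, among them RPL13 (8 sites) and RPL24 (5). Mitochondrial ribosomal protein genes had them at 17 of 40 (42.5%), led by MRPS31 (5) and MRPL17 (4). Translation factor genes gave 16 of 41 (39.0%), with EIF2S2, EIF5 and EIF5A at 5 sites each. Genes of SR proteins and hnRNPs, which regulate splicing, gave 14 of 27 (51.9%), with HNRNPAB and HNRNPF at 4 sites each.

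Some other lists lay closer to the share of all genes. Replication-dependent histone genes had antisense sites at 14 of 45 (31.1%), although HIST1H2BD and HIST1H2AH held 14 and 7. Zinc finger genes gave 89 of 262 (33.97%), with ZNF546 at 12 sites and ZNF284 at 8. Oxidative phosphorylation genes gave 19 of 58 (32.8%), led by COX20 and COX5B (7). Immediate early genes, which respond first to a stimulus, gave 5 of 16 (31.3%), with ATF3 and IER2 at 7 sites each. JUN had 6 antisense sites and no sense site.

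Chaperone genes gave 13 of 36 (36.1%), with DNAJB12 at 4 sites and CCT8 at 3, and DNA replication genes 11 of 31 (35.5%), with MCM9 at 5 and RFC3 at 3. Proteasome genes gave 11 of 25 (44.0%), with PSMC4 at 7 and PSMA6 at 4. Mediator and general transcription factor genes gave 16 of 40 (40.0%), GTF2H2 and MED21 among them with 3 sites each. MED24 and TAF10 had 6 antisense sites each but no sense site, so they are not among the 40. Pause and elongation factor genes gave 7 of 17 (41.2%). SUPT5H, which encodes a subunit of DSIF, had 13 sites, and RTF1 had 4. Cyclin and cyclin-dependent kinase genes gave 10 of 21 (47.6%), with CDK17 at 5 and CDK19 at 4. No list was tested against the others, and a gene transcribed more can give more called sites.

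At the genes of 2 lists the same-gene difference had opposite signs in the buffers. For cytosolic ribosomal protein genes the median antisense minus sense difference was 0.17 and 0.14 in the sarkosyl series, against -1.08 and -0.61 in the sarkosyl-free series, over 11 to 21 genes per series. For translation factor genes these values were 0.80 and 0.41, against -1.54 and -1.47, over 7 to 12 genes. The only other list with at least 5 such genes in every series was zinc finger genes. It gave -0.10 and 0.03 in the sarkosyl series, against 0.86 and -0.53 in the sarkosyl-free series. Over all genes with both kinds of site, single genes spread widely. The quartiles of this difference were -1.01 and 1.21, and -0.51 and 0.64, in sarkosyl replicates 1 and 2. In sarkosyl-free replicates 1 and 2 they were -1.76 and 1.60, and -1.92 and 2.34. Each series has its own set of genes, so the buffers were not compared on the same genes. The difference between the buffers was not tested at any list.

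Promoters with antisense sites were rich in CG dinucleotides. Upstream windows of 250 bases were matched by symbol for 2390 of the 2983 genes (80.1%) and for 14166 coding genes in all. CG occurred 22.4 times per window on average at genes with antisense sites, 21.9 times at genes with sense sites alone and 17.5 times over all genes. The GC-box core GGGCGG, searched on both strands as all motifs here, was in 69.6% of windows at genes with antisense sites, 70.7% at genes with sense sites alone and 57.3% of all. The TATA motif TATAAA was in 4.23%, 5.20% and 9.07%. The NRF1-type motif GCATGCGC was in 6.15%, 4.56% and 3.69%, and the E-box CACGTG in 8.20%, 9.81% and 7.86%. CCAAT was in 36.7%, 36.6% and 34.2%. Genes with sense sites alone were limited to those with at least 251 free window positions, and all genes include both groups. Genes with neither kind of site, limited in the same way, had CG 13.3 times per window, GGGCGG in 46.1% and TATAAA in 13.2%.

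The poly(A) signal AATAAA and a 5′ splice site core GGTAAG bear on how far antisense RNA is made. AATAAA was in 7.99% of windows at genes with antisense sites, 9.11% at genes with sense sites alone and 11.8% of all, and GGTAAG in 4.23%, 5.05% and 5.27%. On the antisense strand alone the shares were 3.39%, 4.50% and 5.82% for AATAAA, and 2.05%, 2.35% and 2.67% for GGTAAG. In these motifs other than CACGTG, genes with antisense sites lay closer to genes with sense sites alone than to all coding genes. These are shares of windows, with no test. A match does not show a site of binding.

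Few positions recurred, among upstream antisense sites as among all autosomal sites. Of the 6281, 4534 (72.2%) were listed in 1 series, 1296 in 2, 341 in 3 and 110 (1.75%) in all 4, while 669 sense sites (2.98%) were in all 4. Of all 149498 autosomal positions, 2667 were in all 4. Among sense sites, 68.1% were listed in 1 series. The sarkosyl replicates shared 927 sites, which was 30.9% of replicate 1 and 46.3% of replicate 2. The sarkosyl-free replicates shared 567, or 24.8% and 43.3%. Across shared sites, Spearman's rho of the times was 0.73 with sarkosyl and 0.48 without it. Between series of different buffers it was 0.07 to 0.17. At the level of genes rather than positions, 407 genes had antisense sites in all 4 series.

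At the 110 sites of all 4 series, the median times were 0.987, 1.138, 1.29 and 1.40. The level was lower with sarkosyl by a log2 difference of -0.34 (exact permutation p = 0.333), and the median of the differences within a site was -0.18. In sarkosyl-free replicate 2 the median of these sites, 1.40, lay far below the 6.62 of all its antisense sites. The 669 sense sites of all 4 series did likewise, with a median of 2.11 in that series against 6.54 for all its sense sites. Their level difference between buffers was -0.62, and the median of the differences within a site was -0.24.

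Single sites were compared between buffers with limma, fitted on all 2967 sites shared by the 4 series on any chromosome, each series centred on its median over these sites. At an adjusted p (Benjamini-Hochberg over all sites) of 0.05, 0 of the 110 antisense sites were called, beside 0% of all shared sites. At an unadjusted p of 0.05, 25 of the 110 were called, 11 longer and 14 shorter with sarkosyl, beside 23.2% of all shared sites. The 2 series of each buffer did not overlap and were longer with sarkosyl at 30 of the 110, beside 31.6% of all sites, and shorter at 32, beside 25.7%. These shares were near the background. Without sarkosyl-free replicate 1 the count at the adjusted threshold was 67 of 110 (53.8% of all sites), and without sarkosyl-free replicate 2 it was 18 (22.2% of all sites). In these fits the lone series is assumed to vary like the others.

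**Figure D5:**
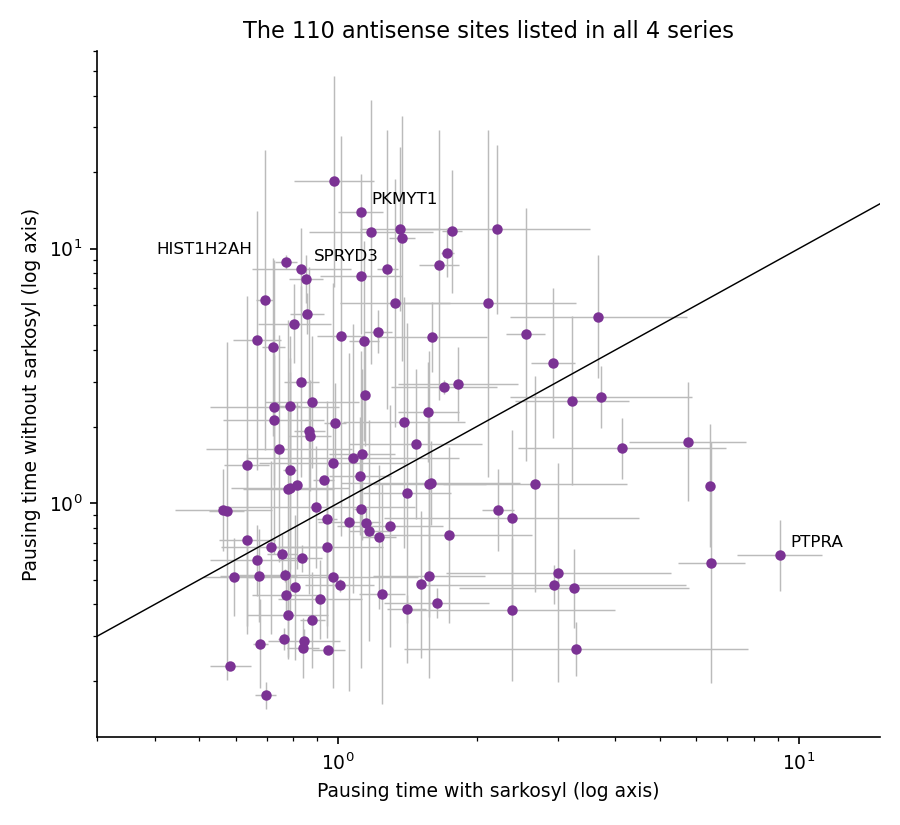
Each point is an antisense site listed in all 4 series, at the geometric mean of its pausing times with sarkosyl (horizontal) and without it (vertical), on log axes, with lines to the values of both replicates and the line of equality. Names mark 4 of the 5 sites with the smallest unadjusted p, and the points spread to both sides of the line.

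Of the 5 sites with the smallest unadjusted limma p, 4 are given as a description. Upstream of PTPRA, a receptor tyrosine phosphatase gene, a site had times of 7.35 and 11.2 with sarkosyl, against 0.452 and 0.858, a centred log2 difference of 4.00 ± 0.76 (SE), with an adjusted limma p of 0.155. Of these 4 it alone was longer with sarkosyl. The site upstream of HIST1H2AH, a histone H2A gene, had 0.729 and 0.816 with sarkosyl against 8.33 and 9.43. It lies 33 bp before the start of HIST1H2BK, a histone H2B gene on the site's own strand. The site upstream of PKMYT1, a kinase gene that holds back entry into mitosis, had 1.25 and 1.0 against 9.90 and 19.6. The site upstream of SPRYD3 had 0.649 and 1.07 against 5.71 and 12.05.

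Of the 110 sites, those shortest over all 4 series stood upstream of DPP9, ZNF397, GPATCH8, EIF2S2 and CDC14A. The site of DPP9, a dipeptidyl peptidase gene, had times of 0.661, 0.734, 0.199 and 0.155. The ZNF397 site, whose sequence is printed above, had 0.528, 0.646, 0.226 and 0.230. That of EIF2S2, a subunit of the initiation factor that carries the initiator tRNA, had 0.742, 0.784, 0.324 and 0.265, and RALY ends 4162 bp before it on the same strand.

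The longest stood upstream of SEC23B, ZNF133, PNPLA6, TIMM23 and TYK2. SEC23B encodes a subunit of the COPII coat, and its site had 3.52, 1.39, 5.56 and 25.6. The site of PNPLA6, a phospholipase gene, had 5.71, 2.36, 3.10 and 9.43. That of TIMM23, the channel of the inner mitochondrial membrane translocase, had 0.801, 1.198, 7.09 and 47.6. The site of TYK2, a Janus kinase gene, had 1.79, 1.67, 7.75 and 12.05. The site of ZNF133 had 1.68, 1.86, 6.71 and 20.4. In SEC23B, ZNF133, TIMM23 and TYK2 the sarkosyl-free times were the longer ones, so the mean over the 4 series covers values that differ between the buffers.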

How the data were processed

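Per the submitters' processing notes, reads were handled with cutadapt 1.14, HISAT2 2.1.0, SAMtools and bedtools on hg38. The authors deposited 4 tables, whose pausing time is another unit, the reciprocal of a rate (median, with quartiles) printed to 3 decimals. The site caller, the model and the unit of time are not given in the sources used here, and the tables hold no depth. Every value column had a group, so 0 were left out. The members and lists were chosen with earlier results of these data known.

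Sites were joined by position and strand and placed on GENCODE release 29 (GRCh38) with Python 3.11.15, numpy 2.4.6 and pandas 2.3.3; plots used matplotlib 3.10.9. Times were analysed as log2. Series medians were compared by two-sided exact permutation (2 against 2, smallest p 0.333) or sign-flip tests (4 series, smallest p 0.125). limma 3.58.1 in R 4.3.3 (lmFit, eBayes, Benjamini-Hochberg, threshold 0.05) was run over all 2967 shared sites and tested on simulated data. Sequences are RefSeq's (GRCh38.p14). None from chromosome 8 is printed. Named genes were the 5 with most antisense positions, the 5 longest and shortest and the 5 with the smallest p among sites of all 4 series, the 5 largest same-sign antisense minus sense differences in each direction, and 2 to 4 examples of a list, those with most antisense positions; 2 genes that this rule names are not reported here. Alternatives covered the starts, windows, site filters, strands, summary, scaling and each series left out.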

Additional observations from a re-analysis of the deposited data

Results flagged for a closer look

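The antisense minus sense difference at cytosolic ribosomal protein genes took opposite signs in the buffers, 0.17 and 0.14 with sarkosyl against -1.08 and -0.61 without it. The buffer means differed by 1.0 on the log2 scale, over 11 to 21 genes per series, and this difference was not tested. Translation factor genes showed the same arrangement, 0.80 and 0.41 with sarkosyl against -1.54 and -1.47 without it. There the buffer means differed by 2.11, over 7 to 12 genes per series, and the difference was not tested either. Lists were looked at for this only where every series had at least 5 genes with both kinds of site. Zinc finger genes were the only other such list, and their sarkosyl-free values, 0.86 and -0.53, differed in sign between replicates. The genes behind a median differ from series to series. Opposite signs in the buffers were also looked for in the surroundings of the sites, the distance classes and the base contrasts. Only cytosolic ribosomal protein and translation factor genes had them.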

How the results depend on the processing

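The difference of antisense and sense median log2 times, close to 0 in both buffers, had no stable sign. With sarkosyl it was 0.13 with outermost starts, 0.082 outside genes on both strands, 0.13 at sites on G, -0.047 within 300 bp, -0.031 for sites of both replicates, -0.011 for the more certain 50% of sites and -0.035 on the plus strand, and it ran from -0.043 to 0.052 as either replicate was left out. Without sarkosyl it was 0.10 with outermost starts, 0.052 per gene, 0.063 in genes with both kinds, 0.062 for sites of both replicates, 0.032 for the more certain 50%, 0.0021 outside genes on both strands, 0.0011 by the mean, 0.65 at sites on C and 0.027 at sites on G, and -0.11 to 0.019 without either replicate. The settings by base were added after seeing the data and cover only sites with sequence, among them mainly sense sites near a start. The difference between buffers turned to -0.025 per gene, -0.034 in genes with both kinds, -0.092 for sites of both replicates and -0.043 for the more certain 50%, and ran from -0.014 to 0.11 as each series was left out.

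Antisense sites per 100 sense sites, with and without sarkosyl, were 20.0 and 21.5 within 300 bp, 32.7 and 32.3 when genes were counted, 71.2 and 78.3 in genes with both kinds, and 15.4 and 16.1 outside genes on both strands. Without sarkosyl they were 23.1 for sites of both replicates, 26.2 for the more certain 50%, 26.4 on the plus strand and 27.9 on the minus strand. The median distance was 178.5 and 164.5 bp within 300 bp, by construction, and without sarkosyl 195.5 bp with outermost starts and 196 bp outside genes on both strands. The cause of the other changes was not tested.

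Of the 110 antisense sites, limma called 5 after quantile normalization, 7 with normal scores, 5 with a replicate block, and 0 to 67 as each series was left out. The same settings called 5.33%, 7.79% and 5.43% of all shared sites. The replicate differences of the buffers had a correlation of 0.01 over 2967 sites, so no effect shared by same-numbered series was seen. This cannot show how the libraries were prepared, and the labels do not say whether the numbers match between buffers. The level of shared sites kept its sign in every setting run. Depth is unknown, and with 2 series per buffer no exact test could pass 0.05.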
